A study of Homo sapiens with 9 samples.

Results

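Expression of 9 genes of glutathione synthesis, NADPH supply and related NRF2-driven defence was compared in Caco-2 cells, a human colon adenocarcinoma line that serves as a model of the intestinal epithelium. The genes were GCLC, GCLM, GSR, SLC7A11, HMOX1, OSGIN1, ME1, PGD and FTL. They and the gene lists used below were taken by name, with earlier results of these data known. All 9 were found among the 27677 genes of the count table. Where several RefSeq transcript entries carried a gene's name, the entry with the highest total over the 9 libraries stood for it. The study measured poly(A) RNA by sequencing in 3 groups of 3 libraries, each from Caco-2 cells kept in medium with lipid-depleted serum for 48 h. Cells of the first group received 10 µM SGA360 and 10 µM lovastatin, those of the second 10 µM SGA315 and 10 µM lovastatin, and those of the third 10 µM lovastatin alone. Lovastatin, an inhibitor of cholesterol synthesis, was thus present in every group, and cells without it were not analysed here. The aryl hydrocarbon receptor (AHR) is a transcription factor that senses foreign chemicals, and both SGA compounds are ligands that the labels call selective for it. The libraries all come from a single cell line, and the labels do not say whether those of a group were separate cultures, so the p-values measure only the spread between libraries, which may be technical.

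NRF2, encoded by NFE2L2, is a transcription factor that is held at a low level by the adaptor KEAP1, which delivers it to a ubiquitin ligase. When oxidants or electrophiles modify KEAP1, NRF2 accumulates, pairs with a small MAF protein and binds antioxidant response elements, where the repressor BACH1 competes with it. Its targets import cystine, make and regenerate glutathione, supply NADPH for that regeneration, break down heme and store the iron that is set free. In the intestinal epithelium these genes also take part in the handling of dietary and drug-derived electrophiles.

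The core of the antioxidant response element is TGACNNNGC, and the promoters of the genes were searched for it because the members share this regulator. RefSeq promoters of GRCh38.p14, from 250 bases before to 50 bases after the gene start, were available for 6 members, namely GCLC, GCLM, OSGIN1, ME1, PGD and FTL. A match on either strand was found in 3 of these 6 promoters, against 13.3% of 35116 promoters of the same length. It lay 34 to 26 bases before the start in GCLM, 137 to 129 bases before it in ME1 and 201 to 193 bases before it in PGD. In ME1 another match lay 12 to 20 bases after the start. The AP-1 site TGACTCA, which can lie inside the element's core, was found in ME1, where it overlaps the match before the start, and in OSGIN1, 97 to 91 bases before the start. Of all promoters 4.95% held it. These matches show where the letters stand and not that a factor binds there. A promoter without a match may still have the element farther from the start, which was not searched. The stretches are shown on the gene's own strand with the match in capitals, which in GCLM and PGD is the reverse complement of the core.
GCLM, chr1:93909431-93909489, minus strand: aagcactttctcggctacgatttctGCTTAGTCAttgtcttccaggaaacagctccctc
ME1, chr6:83431155-83431213, minus strand: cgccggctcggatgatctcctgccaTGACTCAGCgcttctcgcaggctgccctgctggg
PGD, chr1:10398838-10398896, plus strand: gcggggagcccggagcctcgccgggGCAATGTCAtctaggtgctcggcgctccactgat
OSGIN1, AP-1 site, chr16:83953118-83953174, plus strand: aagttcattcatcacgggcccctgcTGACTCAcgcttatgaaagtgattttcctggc
The ATF4 amino acid response element TGATGNAA, held by 3.62% of promoters, and the sterol regulatory element TCACNCCAC, held by 1.13%, were searched on both strands too and matched 0 of the 6.

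Library depth, counted over 1 entry per gene, was 12334083 to 16870148 with SGA360, 12885433 to 14736972 with SGA315 and 14125967 to 16299266 with lovastatin alone. For each library, the closest other library by correlation was of the same group. The epithelial markers EPCAM, CDH1, VIL1 and HNF4A were present in every group, at means of 212.8 to 861 CPM (the usual depth-normalised count, relative to the library's total as scaled by edgeR's TMM factors) with SGA360, while the enterocyte markers SI and KRT20 were at or below 1.36 CPM in all group means. ALPI, another enterocyte marker, averaged 9.75 CPM with SGA360, 22.6 CPM with SGA315 and 7.58 CPM with lovastatin alone, and CDX2 80.1, 117 and 75.9 CPM in the same order of groups. The 10 epithelial markers summed to 5425 to 5841 CPM with SGA360, 4166 to 4256 CPM with SGA315 and 7515 to 7599.7 CPM with lovastatin alone. KRT8 and KRT18 carried most of that sum. KRT8 averaged 2630 CPM with SGA360, 1492 CPM with SGA315 and 3478 CPM with lovastatin alone, and KRT18 1192, 716 and 1630.5 CPM. The sum does not stand for each marker: ALPI and CDX2 were highest with SGA315, and HNF4A averaged 268, 438 and 456 CPM in the same order of groups. The 5 fibroblast markers summed to 36.7 to 39.5 CPM with SGA360, 26.9 to 29.2 CPM with SGA315 and 51.6 to 55.3 CPM with lovastatin alone. COL1A1 carried most of that sum, and the fibroblast gene DCN had 1 count in 1 library of lovastatin alone and 0 in the others. The 5 immune markers summed to 9.44 to 10.1, 10.5 to 12.6 and 14.2 to 16.0 CPM in the same order of groups, and the 4 endothelial markers to 1.68 to 3.08 CPM in any library. The part of these genes in the results below was not tested. All changes are given under TMM. When libraries were scaled to their totals alone, all genes had a median log2 fold change of 0.14 for SGA360 and 0.16 for SGA315, against 0.022 and 0.035 under TMM.

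Of the 9 genes, 8 were lower and 1, FTL, was higher in cells given SGA360 than in cells given lovastatin alone (edgeR quasi-likelihood test, Benjamini-Hochberg adjusted p under 0.05 over 14678 genes). The same counts, 8 lower and 1 higher, were found with SGA315. Calls were common among all genes, where edgeR's common biological coefficient of variation was 2.16%, without counting error: 62.7% passed the test with SGA360 (31.4% lower and 31.4% higher), and 69.2% passed with SGA315 (33.2% lower and 36.0% higher). The 8 genes fell by 10.1% to 35.4% with SGA360, and with SGA315 they fell by 10.1% to 44.9%. For all 9 genes the libraries of either ligand did not overlap those of lovastatin alone, as was the case for 66.3% of all genes with SGA360 and 70.3% with SGA315. With scaling to totals only, 6463 genes were higher and 3140 lower with SGA360 (4603 and 4603 with TMM), 6923 were higher and 3630 lower with SGA315 (5285 and 4872 with TMM), and 7 and 6 of the 9 genes were called lower. The median log2 fold change of the 9 genes was −0.33 with SGA360 and −0.25 with SGA315, or −0.22 and −0.13 with scaling to totals only. In a test against a change of 1.5-fold (edgeR glmTreat), 0 of the 9 passed with SGA360, also at an unadjusted p under 0.05, where 2.77% of genes were called lower and 2.92% higher. With SGA315 OSGIN1 alone passed, where 5.12% of genes were called lower and 5.63% higher, and at an unadjusted p under 0.05 there were 2, OSGIN1 and ME1 (adjusted p = 0.0526 for ME1). Every gene named below as losing a call against lovastatin alone under an alternative also missed this 1.5-fold test in that comparison, and the ranges of adjusted p given over the alternatives leave it out. Without that minimum size DESeq2 also called 8 lower and 1 higher for each ligand. Both comparisons use the same 3 lovastatin libraries, so their values are not independent of each other. In RNA from bulk cells, a change in all cells and a change in the number of cells that express a gene cannot be told apart.

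**Figure D1:**
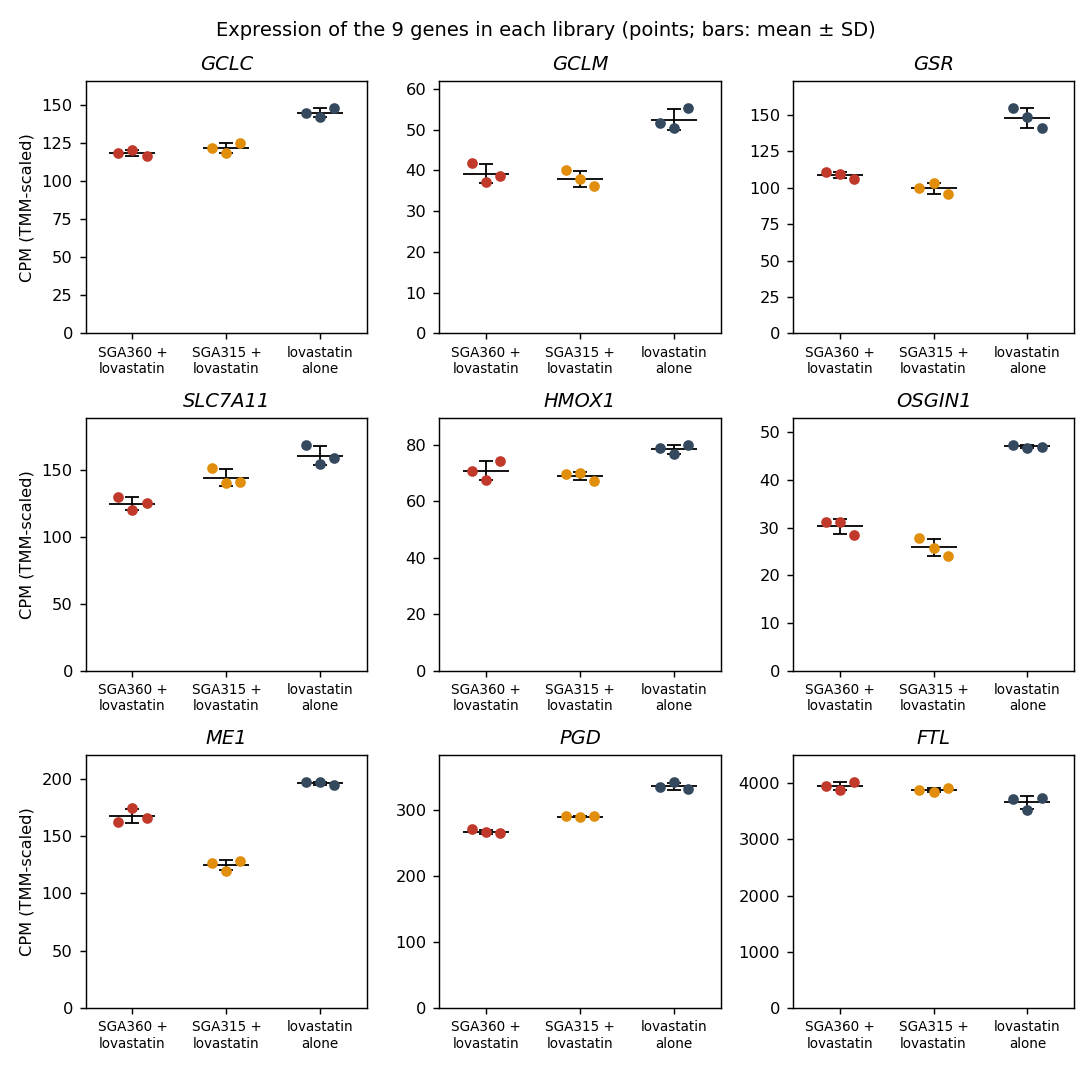
Level of each of the 9 genes in every library, scaled by TMM (CPM, vertical axis, from 0), for cells with SGA360 and lovastatin, SGA315 and lovastatin, and lovastatin alone (3 points each; bars give mean ± SD). In 8 panels the points of both ligand groups lie below those of lovastatin alone, and in the panel of FTL they lie above them.

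SLC7A11 encodes the light chain of the cystine/glutamate antiporter, which brings in the cystine from which cells obtain cysteine for glutathione. It had 129.5, 119.9 and 125 CPM with SGA360, 151, 140.3 and 141 CPM with SGA315, and 168, 155 and 159 CPM with lovastatin alone. The 3 groups did not overlap, with the SGA360 libraries lowest and the SGA315 libraries in between. The log2 fold change was −0.36 ± 0.0354 (SE) with SGA360 (adjusted p = 3.07e-14) and −0.15 ± 0.0351 with SGA315 (adjusted p = 9.95e-05). The call for SGA315 was lost when libraries were scaled to totals (−0.033, with an adjusted p of 0.403; the alternatives ranged between 1.54e-06 and 0.403). Relative to SGA315, SLC7A11 fell by 13.6% with SGA360 (adjusted p = 1.59e-06). SLC7A11 overlaps the antisense gene SLC7A11-AS1, which had 1065 counts over all libraries against 18984 for SLC7A11, and the strand setting of the counting is not given. Its partner SLC3A2, the heavy chain shared by several amino acid transporters, moved the other way. SLC3A2 rose to 944 ± 22.1 CPM with SGA360 and to 636 ± 27.0 CPM with SGA315, against 544 ± 7.65 CPM with lovastatin alone (SD, n = 3 each; adjusted p = 3.19e-36 and 1.36e-10). Its log2 fold change with SGA315 was 0.22, or 0.34 with totals scaling.

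GCLC and GCLM encode the catalytic and the modifier subunit of glutamate-cysteine ligase, which carries out the rate-limiting step of glutathione synthesis. GCLC had 119, 121 and 117 CPM with SGA360, 122, 118 and 125 CPM with SGA315, and 145, 143 and 148 CPM with lovastatin alone. The libraries of both ligands overlapped each other and lay below all 3 of lovastatin alone. GCLC fell by 18.2% with SGA360 (log2 fold change −0.29 ± 0.0336, adjusted p = 1.65e-11) and fell by 16.2% with SGA315 (−0.25 ± 0.0339, adjusted p = 8.87e-10). With totals scaling the log2 fold changes of GCLC were −0.18 with SGA360 and −0.13 with SGA315, both still called. GCLM had 41.9, 37.2 and 38.6 CPM with SGA360, 40.0, 37.8 and 36.2 CPM with SGA315, and 51.6, 50.4 and 55.3 CPM with lovastatin alone. It fell by 25.3% with SGA360 (−0.42 ± 0.0517, adjusted p = 1.09e-10) and fell by 27.5% with SGA315 (−0.46 ± 0.0529, adjusted p = 6.22e-12). Within a library, each GCLM count went with 2.83, 3.25 and 3.02 GCLC counts in the SGA360 libraries, 3.05, 3.13 and 3.45 in the SGA315 libraries, and 2.80, 2.83 and 2.68 in those of lovastatin alone. This ratio does not depend on scaling between libraries, and it is not a ratio of molecules because the entries differ in length. Its values with either ligand all lay above those with lovastatin alone, though the lowest SGA360 and the highest lovastatin library both round to 2.83, and the ratio was not tested.

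GSR encodes glutathione reductase, which uses NADPH to return oxidised glutathione to its reduced form. It had 110.4, 109 and 106 CPM with SGA360, 99.6, 103 and 95.9 CPM with SGA315, and 155, 149 and 141 CPM with lovastatin alone. No group overlapped another, and the SGA315 libraries were lowest. GSR fell by 26.5% with SGA360 (log2 fold change −0.44 ± 0.0356, adjusted p = 1.09e-17) and fell by 32.6% with SGA315 (−0.57 ± 0.0365, adjusted p = 2.55e-22). It was 9.03% higher with SGA360 than with SGA315 (adjusted p = 0.00544). GSS, glutathione synthetase, which adds glycine in the last step of synthesis, was at 153 ± 2.22 CPM with SGA360, 114 ± 5.53 CPM with SGA315 and 166 ± 5.15 CPM with lovastatin alone. Its log2 fold change was −0.12 with SGA360 (adjusted p = 0.00126; with totals scaling −0.0056, adjusted p = 0.891) and −0.54 with SGA315 (adjusted p = 3.59e-22).

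ME1 and PGD encode cytosolic malic enzyme and 6-phosphogluconate dehydrogenase, which reduce NADP+ to NADPH from malate and in the pentose phosphate pathway. ME1 had 163, 175 and 166 CPM with SGA360, 127, 119.8 and 128 CPM with SGA315, and 197, 197 and 195 CPM with lovastatin alone. The SGA315 libraries stood well below the others, and the 3 groups did not overlap. ME1 fell by 14.6% with SGA360 (log2 fold change −0.23 ± 0.0316, adjusted p = 4.18e-09) and fell by 36.4% with SGA315 (−0.65 ± 0.0333, adjusted p = 2.05e-27). With totals scaling the log2 fold change of ME1 with SGA360 was −0.11 and still called. PGD had 270.2, 266 and 264 CPM with SGA360, 290.0, 288 and 290.0 CPM with SGA315, and 334, 341 and 331 CPM with lovastatin alone. Here the SGA360 libraries were lowest, and again no group overlapped another. PGD fell by 20.5% with SGA360 (−0.33 ± 0.0271, adjusted p = 2.88e-17) and fell by 13.7% with SGA315 (−0.21 ± 0.0271, adjusted p = 2.46e-10). With totals scaling these log2 fold changes were −0.22 and −0.092, both still called.

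Of the enzymes of the non-oxidative branch of the pentose phosphate pathway, TKT (transketolase) fell by 35.5% with SGA360 and fell by 31.6% with SGA315. TALDO1 (transaldolase) fell by 15.1% with SGA360 and fell by 29.6% with SGA315. The log2 fold change of TALDO1 with SGA360 was −0.24, or −0.12 with totals scaling. Other genes of this branch changed less. RPIA fell by 10.7% with SGA360 and fell by 12.9% with SGA315. RPE was not called with SGA360 (log2 fold change 0.045, adjusted p = 0.303) and fell by 10.6% with SGA315. RPIA and RPE were named after their values were seen, and RPE overlaps KANSL1L. IDH1, the cytosolic isocitrate dehydrogenase that also makes NADPH, had a log2 fold change of −0.091 with SGA360 (adjusted p = 0.00237), which was 0.023 and not called with totals scaling, and of −0.31 with SGA315 (adjusted p = 5.22e-16), or −0.19 with totals scaling. Of all genes, 31.4% were called higher and 31.4% lower with SGA360, and 36.0% higher and 33.2% lower with SGA315. Over the 15 NADPH genes other than ME1 and PGD, 7 were higher and 6 lower with SGA360 and 5 were higher and 6 lower with SGA315, or 8 and 4 for each ligand with scaling to totals only. Their median log2 fold change was 0.045 with SGA360 and −0.0018 with SGA315, or 0.16 and 0.12 with totals scaling. ALDH1L1, a folate enzyme that makes NADPH, had the largest rise of the list, but at 1.48 CPM with SGA360, 2.10 CPM with SGA315 and 0.187 CPM with lovastatin alone it was barely detected, and it was named after its value was seen.

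HMOX1 encodes heme oxygenase 1, the inducible enzyme that opens heme and sets its iron free, and FTL encodes the light chain of ferritin, the shell that stores iron. HMOX1 had 70.6, 67.7 and 74.5 CPM with SGA360, 69.7, 70.0 and 67.3 CPM with SGA315, and 78.9, 76.8 and 79.9 CPM with lovastatin alone. The libraries of both ligands overlapped each other and lay below those of lovastatin alone. HMOX1 fell by 10.1% with SGA360 (log2 fold change −0.15 ± 0.0410, adjusted p = 0.000923) and fell by 12.2% with SGA315 (−0.19 ± 0.0417, adjusted p = 7.16e-05). Both calls were lost when libraries were scaled to totals: the log2 fold change was −0.039 with SGA360 (adjusted p = 0.415, in a range of 0.000221 to 0.415 over the alternatives) and −0.066 with SGA315 (adjusted p = 0.154, in a range of 7.16e-06 to 0.154). HMOX2, the constitutive heme oxygenase, fell by 27.9% with SGA360 and fell by 30.1% with SGA315, but it overlaps NMRAL1, a gene of similar total count, and its value is uncertain.

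FTL had 3946, 3877 and 4017 CPM with SGA360, 3886, 3847 and 3912 CPM with SGA315, and 3716, 3529 and 3739 CPM with lovastatin alone. All libraries of both ligands lay above those of lovastatin alone, of which replicate 2 was the lowest. FTL was 7.79% higher with SGA360 (log2 fold change 0.11 ± 0.0270, adjusted p = 0.000391) and 6.01% higher with SGA315 (0.084 ± 0.0270, adjusted p = 0.00474). With totals scaling these log2 fold changes were 0.22 and 0.20. The call for SGA315 ended without lovastatin replicate 2 (0.056, adjusted p = 0.0948) and without SGA315 replicate 1 (0.07, adjusted p = 0.0505; 3.17e-10 to 0.0948 over the alternatives). RefSeq lists 20 pseudogenes named after FTL, 1 of which is in the count table with 0 counts, so the level of FTL is uncertain. FTH1, the ferritin heavy chain with the iron-oxidising site, rose further, to 1847 ± 26.9 CPM with SGA360 and 2052 ± 66.4 CPM with SGA315, against 1543 ± 36.7 CPM with lovastatin alone (adjusted p = 3.93e-13 and 7.31e-22). Each FTH1 count went with 2.13, 2.13 and 2.15 FTL counts in the SGA360 libraries, 1.96, 1.86 and 1.85 in the SGA315 libraries, and 2.47, 2.24 and 2.41 in those of lovastatin alone. The 3 groups did not overlap in this ratio, which is free of scaling between libraries and was not tested. The uncertainty in the level of FTL applies to the ratio too, and pseudogenes of FTH1 were not looked up. TFRC, the transferrin receptor that takes up iron, fell to 555 ± 9.51 CPM with SGA360 and 336 ± 6.84 CPM with SGA315, against 829.8 ± 2.86 CPM with lovastatin alone (adjusted p = 2.48e-30 and 2.84e-49).

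**Figure D2:**
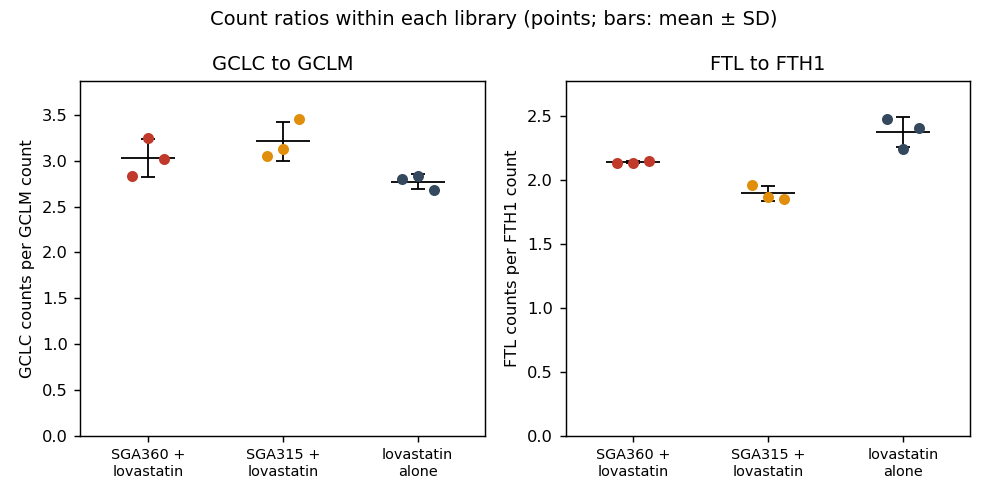
Counts of GCLC per count of GCLM (left) and of FTL per count of FTH1 (right) in each library (points; bars give mean ± SD, n = 3 per group; axes from 0). The GCLC to GCLM ratio averaged 3.03 with SGA360, 3.21 with SGA315 and 2.77 with lovastatin alone, and the FTL to FTH1 ratio averaged 2.14, 1.89 and 2.37 in the same order of groups.

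The biliverdin reductase genes, whose products act on the biliverdin that heme oxygenase makes, did not move alike. BLVRB rose to 65.5 ± 2.87 CPM with SGA360 and 62.2 ± 2.65 CPM with SGA315, against 51.2 ± 2.35 CPM with lovastatin alone. BLVRA averaged 13.2 ± 1.09 CPM with SGA360, 10.2 ± 0.610 CPM with SGA315 and 10.9 ± 0.681 CPM with lovastatin alone, and was called higher with SGA360 only. The difference in BLVRA between the ligands was itself called (log2 fold change 0.36 ± 0.0933, adjusted p = 0.00105), while its rise with SGA360 (adjusted p = 0.00935) was lost with DESeq2 (adjusted p = 0.0805). It was also lost when lovastatin replicate 1 (adjusted p = 0.0892) or SGA360 replicate 3 (adjusted p = 0.0652) was left out, in a range of 0.000254 to 0.0892 over the alternatives. Calls over all genes were 31.4% higher and 31.4% lower with SGA360, and 36.0% higher and 33.2% lower with SGA315. Of 13 tested heme and iron genes other than HMOX1 and FTL, 5 were higher and 5 lower with SGA360, and 5 higher and 6 lower with SGA315. With scaling to totals only the numbers were 7 and 4, and 6 and 5, and the medians of −0.02 with SGA360 and −0.096 with SGA315 became 0.094 and 0.024.

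OSGIN1, which encodes an oxidative stress-induced growth inhibitor, had the largest fall of the 9 genes with either ligand. It had 31.2, 31.2 and 28.5 CPM with SGA360, 27.7, 25.7 and 24.1 CPM with SGA315, and 47.3, 46.8 and 47.0 CPM with lovastatin alone. No group overlapped another, and the SGA315 libraries were lowest. OSGIN1 fell by 35.4% with SGA360 (log2 fold change −0.63 ± 0.0546, adjusted p = 3.03e-16) and fell by 44.9% with SGA315 (−0.86 ± 0.0574, adjusted p = 1.75e-21). It passed the test against a 1.5-fold change with SGA315 (adjusted p = 1.94e-05) and not with SGA360 (adjusted p = 0.719). Among all genes tested, 4.97% had a lower log2 fold change than OSGIN1 with SGA360 and 3.51% with SGA315.

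Compared with each other, SGA360 and SGA315 gave different levels of 5 of the 9 genes at the same dose and time. ME1, OSGIN1 and GSR were higher with SGA360, and SLC7A11 and PGD were lower, where 42.7% of all genes were called, 21.8% higher and 20.9% lower. These 5 were also the ones whose libraries did not overlap between the ligands, as was the case for 49.1% of all genes. In the test against a 1.5-fold change 0 of the 9 passed, also at an unadjusted p under 0.05, where 0.511% of genes were higher and 0.736% lower, while DESeq2 without that minimum called 3 higher and 2 lower. The largest of these differences was in ME1, at 34.3% (log2 fold change 0.43 ± 0.0337, adjusted p = 2.99e-17), followed by OSGIN1 at 17.2% (0.23 ± 0.0619, adjusted p = 0.00177). PGD fell by 7.87% with SGA360 relative to SGA315 (−0.12 ± 0.0275, adjusted p = 0.000295). For the remaining 4 genes the test made no call. The 95% interval of the log2 difference was −0.10 to 0.03 for GCLC, −0.07 to 0.15 for GCLM, −0.05 to 0.12 for HMOX1 and −0.03 to 0.08 for FTL, so values within these bounds, in either direction, fit the data for each gene.

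**Figure D3:**
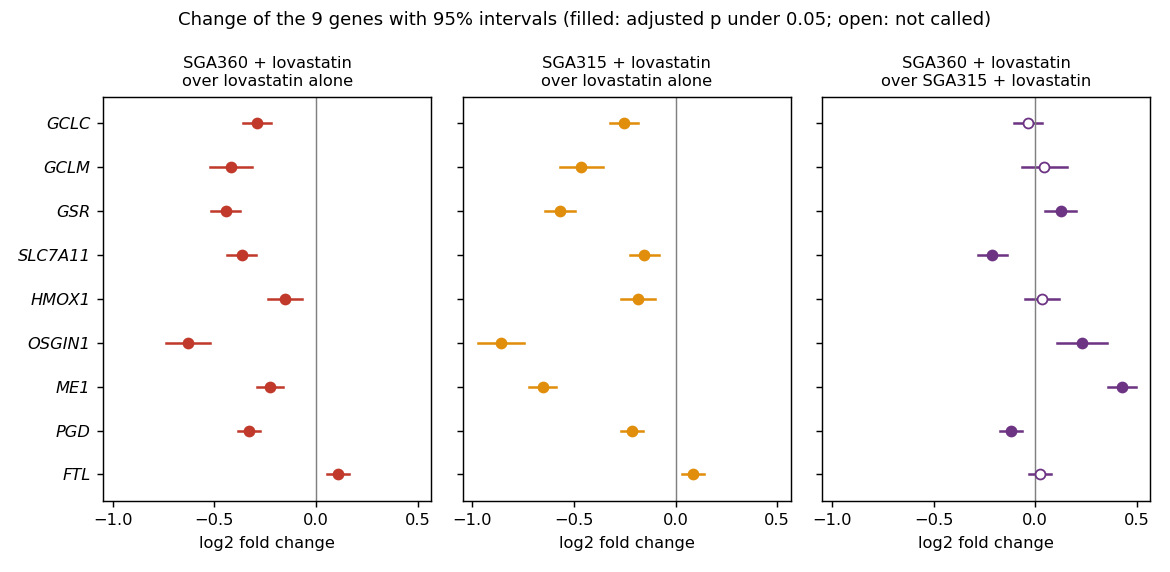
Log2 fold change of each of the 9 genes (horizontal axis) with its 95% interval, for SGA360 over lovastatin alone, SGA315 over lovastatin alone, and SGA360 over SGA315, all with lovastatin. Filled points are genes with an adjusted p under 0.05. GCLC to PGD lie left of 0 and FTL lies right of it in the first and second panels, while the third holds 5 filled points, 3 right and 2 left of 0.

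Of the 13 regulators of the pathway, 9 were lower and 3 higher with SGA360, and 7 lower and 4 higher with SGA315. Over all genes 31.4% were lower and 31.4% higher with SGA360, and 33.2% lower and 36.0% higher with SGA315. With scaling to totals only 5 of the 13 were lower and 3 higher with SGA360, and 6 lower and 6 higher with SGA315. NFE2L2, which encodes NRF2, fell to 74.8 ± 1.57 CPM with SGA360 and 84.8 ± 3.43 CPM with SGA315, against 104 ± 2.42 CPM with lovastatin alone (log2 fold change −0.47 ± 0.0386, adjusted p = 2.65e-17, and −0.29 ± 0.0384, adjusted p = 6.05e-10; with totals scaling −0.17 for SGA315). KEAP1, its inhibitor, fell to 58.6 ± 2.60 CPM with SGA360 and 65.1 ± 2.18 CPM with SGA315, against 88.2 ± 2.97 CPM with lovastatin alone. BACH1, the repressor at the same elements, rose to 60.4 ± 3.53 CPM with SGA360 and 67.5 ± 2.63 CPM with SGA315, against 48.9 ± 0.964 CPM with lovastatin alone (0.30 ± 0.0472, adjusted p = 9.75e-08, and 0.47 ± 0.0469, adjusted p = 7.29e-14). MAFG, a small MAF partner, was lower with SGA360 (−0.16, adjusted p = 0.000963; with totals scaling −0.045, adjusted p = 0.36) and higher with SGA315 (0.12, adjusted p = 0.0101; with totals scaling 0.24). The call for SGA315 ended with DESeq2 (adjusted p = 0.142), without lovastatin replicate 2 (adjusted p = 0.0845), without SGA315 replicate 1 (adjusted p = 0.0527) and without SGA315 replicate 2 (adjusted p = 0.0829), in a range of 1.11e-06 to 0.142 over the alternatives. SQSTM1, a selective autophagy receptor that binds KEAP1, had a log2 fold change of −0.10 with SGA360 (adjusted p = 0.000428) and −0.014 with SGA315 (adjusted p = 0.631). With totals scaling these were 0.012 (adjusted p = 0.682) and 0.11 (adjusted p = 0.000164), and SQSTM1 overlaps MGAT4B.

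Most of the other NRF2 targets were lower with both ligands. Of 13 tested (of 14 listed, TRIM16L having no entry here), 9 were lower and 2 higher with either ligand. Among all genes 31.4% were lower and 31.4% higher with SGA360, and 33.2% lower and 36.0% higher with SGA315. With scaling to totals only, 8 of the 13 were lower and 2 higher with SGA360, and 9 and 3 with SGA315. The median log2 fold change of the 13 was −0.39 with SGA360 and −0.46 with SGA315, or −0.28 and −0.34 with totals scaling. TXNRD1, the thioredoxin reductase gene, fell to 228 ± 4.07 CPM with SGA360 and 253 ± 2.81 CPM with SGA315, against 359 ± 4.18 CPM with lovastatin alone. SRXN1, which repairs over-oxidised peroxiredoxins, fell to 85.1 ± 3.39 CPM with SGA360 and 81.0 ± 3.69 CPM with SGA315, against 112 ± 4.37 CPM with lovastatin alone. PRDX1, a peroxiredoxin, was at 232 ± 2.10 CPM with SGA360, 236 ± 6.63 CPM with SGA315 and 523 ± 6.80 CPM with lovastatin alone. NQO1, a quinone reductase that AHR also regulates, was at 407 ± 8.78 CPM with SGA360, 539 ± 4.05 CPM with SGA315 and 756 ± 7.27 CPM with lovastatin alone. ABCC3, an efflux transporter gene in the same list, was at 61.6 ± 1.89 CPM with SGA360, 78.2 ± 2.92 CPM with SGA315 and 36.7 ± 0.963 CPM with lovastatin alone, and was named after its value was seen.

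The 19 other glutathione genes moved in both directions. The shares of all genes called higher and lower were 31.4% and 31.4% with SGA360, and 36.0% and 33.2% with SGA315. With SGA360 5 of the 19 were higher and 6 lower, at a median log2 fold change of −0.061 that was 0.054, with 8 higher and 3 lower, under totals scaling. With SGA315 6 of the 19 were higher and 10 lower, at a median of −0.17 (6 and 9, at −0.054, under totals scaling). GPX2, an epithelial glutathione peroxidase and NRF2 target, was at 102, 97.6 and 104 CPM with SGA360, 129.7, 126 and 126 CPM with SGA315 and 189.6, 214 and 209.9 CPM with lovastatin alone, and was named after its value was seen. It overlaps CHURC1-FNTB, which had 5542 counts over all libraries against 19049 for GPX2, so its value is uncertain. CHAC1, which degrades glutathione and is a target of the amino acid stress factor ATF4, was at 28.3 ± 0.526 CPM with SGA360 and 23.4 ± 0.753 CPM with SGA315, against 32.0 ± 0.807 CPM with lovastatin alone. Its log2 fold change was −0.18 with SGA360 (adjusted p = 0.00744; with totals scaling −0.061, adjusted p = 0.362) and −0.45 with SGA315 (adjusted p = 2.43e-09). GGT1, which cleaves glutathione outside the cell, was at 4.64 ± 0.890 CPM with SGA360 and 6.65 ± 0.262 CPM with SGA315, against 3.33 ± 0.263 CPM with lovastatin alone. Its call for SGA360 (adjusted p = 0.00435) ended without SGA360 replicate 1 (adjusted p = 0.114, in a range of 0.000486 to 0.114 over the alternatives), and GGT1 overlaps LRRC75B, which had more counts. GPX4, the glutathione peroxidase that reduces lipid peroxides, had log2 fold changes of −0.061 with SGA360 (adjusted p = 0.0527) and −0.082 with SGA315 (adjusted p = 0.00802), which were 0.054 and 0.038 and not called under totals scaling. For SGA360, 11 of the 17 alternatives called GPX4 lower, among them RLE (adjusted p = 0.0252) and DESeq2 (adjusted p = 0.0348), in a range of 0.0109 to 0.178 over the alternatives.

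**Figure D4:**
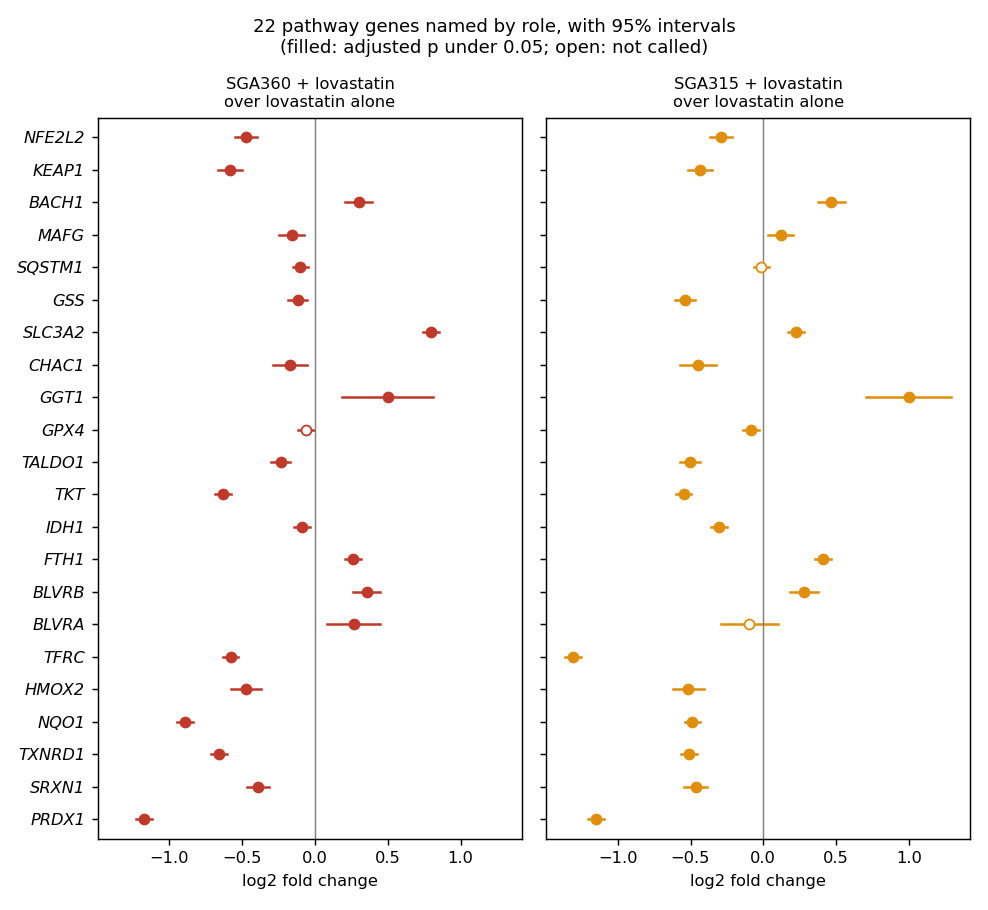
Log2 fold change (horizontal axis) with 95% interval of 22 pathway genes, in the order of regulators, glutathione, NADPH, heme and iron, and other NRF2 targets, for SGA360 (left) and SGA315 (right) over lovastatin alone. Filled points have an adjusted p under 0.05. PRDX1 lies farthest left and SLC3A2 farthest right with SGA360, and TFRC farthest left and GGT1 farthest right with SGA315.

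Per kilobase of transcript, with lengths from GENCODE 29 for the entry used, FTL was the most abundant of the 9 genes in every group, at 4495 ± 79.7 CPM per kilobase with SGA360, 4421 ± 37.3 with SGA315 and 4170.1 ± 131 with lovastatin alone. PGD came next at 141 ± 1.70, 154 ± 0.476 and 178 ± 2.80 CPM per kilobase in the same order of groups. GCLM was the least abundant, at 8.08 ± 0.495, 7.82 ± 0.402 and 10.8 ± 0.522 CPM per kilobase. ME1 followed with SGA360 and with lovastatin alone, at 49.7 ± 1.89 and 58.3 ± 0.371 CPM per kilobase, but with SGA315, at 37.1 ± 1.32, its libraries overlapped those of HMOX1 at 37.9 ± 0.807. GSR and GCLC overlapped with SGA315 as well, at 31.2 ± 1.15 and 31.9 ± 0.866 CPM per kilobase, and did not overlap with SGA360, at 34.0 ± 0.680 and 31.1 ± 0.544, or with lovastatin alone, at 46.3 ± 2.20 and 38.1 ± 0.735. HMOX1 ranked above GSR with SGA360, at 38.9 ± 1.85 CPM per kilobase, and below it with lovastatin alone, at 43.1 ± 0.887. SLC7A11 at 12.9 ± 0.499 and OSGIN1 at 15.6 ± 0.804 CPM per kilobase with SGA360 stood between GCLC and GCLM.

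The genes whose log2 CPM over the 9 libraries was most like that of each member were sought among 11513 genes of at least 5 CPM, as a description. They were CKS2 and NOP14 for GCLC (Pearson r = 0.994 and 0.993), ECE1 and UBAC1 for GCLM (0.988 and 0.987), and PTK7 and AURKAIP1 for GSR (0.997 and 0.997). For SLC7A11 they were NUP214 and SEC24C (0.978 and 0.968), and for HMOX1 P4HA2 and TRIAP1 (0.98 and 0.978). RBX1 and CST3 were most like OSGIN1 (0.997 and 0.997). FKBP4 and MPZL1 were most like ME1 (0.995 and 0.994), ATP11A and C15orf39 most like PGD (0.997 and 0.996), and HEXIM2-AS2 and UBXN2B most like FTL (0.974 and 0.971). All these points share the same 9 libraries in 3 groups, and no test was made.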

How the data were processed

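Poly(A) RNA of 9 Caco-2 libraries was sequenced, and group and replicate were taken from the labels. The deposited values are raw read counts per RefSeq transcript entry and library, as the column names per the file headers and the whole numbers show. The submitters' processing notes list TopHat2 2.0.13, HTSeq 0.5.4p3 and the build hg19 with no role, and the sources used here give neither the annotation release nor the strand setting. Of 65325 entries, 64346 were named from a RefSeq table of GRCh38.p14 and 545 from GENCODE 29. The 434 unnamed entries, with 0.255% of counts, were left out. The entry with the highest total stood for each gene (ties by accession), since the entries of a gene repeat the same reads: for GCLC, GCLM, GSR and PGD, which have 2 to 4 entries, the lowest held 94.8 to 100% of the highest. Of genes with identical counts of at least 100 in total, 1 was kept (43 dropped). The build differs, so RefSeq served for names, overlaps and the promoter sequences, whose coordinates are those of GRCh38.p14.

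Differences in counts were tested in R 4.3.3 by edgeR 4.0.16 with TMM, filterByExpr (minimum count 10, total 15), quasi-likelihood F test, all 9 libraries in 1 fit without covariates, Benjamini-Hochberg adjustment over 14678 genes, threshold 0.05. The common biological coefficient of variation was 2.16%. A count of 0 allows up to 3 counts, or 0.178 to 0.243 CPM; such limits cover counting error only. The named genes are the 9 members, 22 genes fixed by name from 5 lists (1 more is not reported here) and the 2 genes most correlated with each member. The members and lists were chosen with earlier results of these data known, so their counts and medians are descriptions, set beside those of all genes, without a test of the list. Alternatives were RLE, scaling to totals only, DESeq2 1.42.0, no filter, a fit restricted to both groups of a comparison, the replicate number as block, omission of each library in turn, glmTreat at 1.5-fold and the second highest entry of each gene.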

Additional observations from a re-analysis of the deposited data

How the results depend on the processing

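In the test against a 1.5-fold change the genes called were 429 higher and 406 lower with SGA360, 826 and 752 with SGA315, and 75 and 108 for SGA360 over SGA315; of the 9 members 0 were higher and 0 lower, 0 and 1, and 0 and 0, because the test asks for a larger change. DESeq2 called 1955 genes lower for SGA360 over SGA315, against 3065; the cause was not tested. Members called higher with SGA315 were 0 to 1 when 1 library was left out, through FTL. With the replicate number as a block, 4679 genes were higher and 4658 lower with SGA360, 5347 and 4926 with SGA315, and 3284 and 3154 between the ligands, and the members' counts stayed at 1 and 8, 1 and 8, and 3 and 2. Deviations of same-numbered libraries of different groups correlated at −0.024 to 0.0456, and those of differently numbered ones at −0.057 to 0.0325. No clear pairing by number was seen, but a weak one could be missed. Signs reversed with scaling to totals only for SQSTM1 (0.012 with SGA360, 0.11 with SGA315), GPX4 (0.054 and 0.038), IDH1 (0.023 with SGA360) and BLVRA (0.024 with SGA315), where the median of all genes also moved up. Between the ligands GCLM ranged from −0.00995, without SGA360 replicate 1, to 0.0871, without SGA360 replicate 2, when 1 library was left out, and was not called. Over all alternatives 431 of the members' values kept direction and side of the threshold, 27 kept direction and lost the call and 1 reversed. Most of the lost calls came from the test against a 1.5-fold change. FTL, HMOX1, ME1, OSGIN1 and SLC7A11 have 1 entry, so the setting with the second highest entry used the same counts for them. The second entries of the other members repeat nearly the same reads, so this tally is not a count of independent checks. At 4577 counts over all libraries, OSGIN1 was the member with the fewest counts, and its SE was the widest.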
